A study of Mus musculus with 12 samples.

Results

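The comparison set the embryonic stem cell line named SOM against the lines named 41584 and 41589, to ask what differs among Dicer-complemented lines that are taken to process microRNAs. It rests on 6 of the 12 libraries of the series, 2 for each line, chosen by their labels. Only SOM had high Dicer1 reads among these 3 lines, and this was part of how the comparison was chosen, so Dicer1 is described below and not offered as a finding. All cells were E14, a mouse embryonic stem cell line (129/Ola background), grown with serum and LIF, a cytokine that holds stem cells undifferentiated, on gelatin. WT, KO and the complemented lines were all kept in 1 µg/mL of puromycin. The labels call 41584 similar to WT and describe 41589 as lacking siRNA processing, and the line 41585 as lacking miRNA and siRNA processing. For SOM they give the name alone. What SOM, 41584, 41585 and 41589 stand for, the sequence put back in each line, whether a line is 1 clone, and the part of Dicer1 removed in KO were not stated in the labels. The labels do not say that the libraries of a line came from separate cultures, so every p-value below measures only the spread between these libraries.

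Dicer is the ribonuclease that cuts hairpin precursors into miRNAs and long double-stranded RNA into siRNAs. Mature miRNAs pair through their seed, bases 2 to 8, with sites in the 3' untranslated regions (UTRs) of messages and lower their level. In mouse embryonic stem cells the most abundant miRNAs are those of the miR-290 cluster, which share a seed with miR-302 and overlap that of miR-17, and they are known for supporting rapid division, whereas let-7 accumulates on differentiation. Small interfering RNAs act mainly on repeats and viral RNA.

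The miRNAs whose sites were looked for are shown here with the seed in capitals, from RefSeq (GRCm38.p6). The first 3 share 1 seed, that of miR-20a-5p is shifted by 1 base, let-7a-5p stands for the let-7 family, and miR-208a-3p is a heart miRNA that serves as the site of another tissue.
mmu-miR-294-3p: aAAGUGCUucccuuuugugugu
mmu-miR-291a-3p: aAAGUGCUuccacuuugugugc
mmu-miR-302b-3p: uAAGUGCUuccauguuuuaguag
mmu-miR-20a-5p: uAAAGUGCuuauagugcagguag
mmu-let-7a-5p: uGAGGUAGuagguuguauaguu
mmu-miR-208a-3p: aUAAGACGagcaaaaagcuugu

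The 6 libraries held 5348401 to 10428509 counted reads and 18517 to 20322 genes with at least 1 read. The 10 markers of embryonic stem cells summed to 6210 to 7350 CPM (read counts scaled to library size with TMM) in them. Markers of fibroblasts, which can come from feeder layers, summed to 8.71 to 41.1 CPM, with Fap and Twist2 at 0 in all 6. Most of that sum was Thy1, at 5.75 to 25.4 CPM, and Pdgfrb, at 2.18 to 13.7 CPM, both highest in 41584 replicate 1. Markers of primitive endoderm summed to 67.5 CPM in 41584 replicate 1 and to 8.96 to 18 CPM in the other 5, with Dab2 at 33.5 CPM and Gata4 at 10.9 CPM in that library. The markers did not all stand out there. Sox7, at 2.43 CPM, was below SOM replicate 1, at 3.6 CPM, and Gata6, at 5.11 CPM, was near 41584 replicate 2, at 4.35 CPM. Over 14629 genes, SOM replicate 2 correlated at r = 0.978 with 41584 replicate 2 and at 0.976 with 41589 replicate 2, against 0.967 with its own replicate. The replicates of 41584 correlated at 0.935 and those of 41589 at 0.948, whereas replicate 1 of these 2 lines correlated at 0.977. Replicate 2 of the 2 lines correlated at 0.959, less than 41584 replicate 2 with 41589 replicate 1, at 0.964. These are correlations of log2 CPM across genes, which are not independent. The median absolute log2 difference between replicates was 0.364 in SOM, 0.534 in 41584 and 0.514 in 41589. The replicates within 41584 and within 41589 thus stood apart, and several results are given below against each replicate number.

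Dicer1 (ENSMUSG00000041415, chr12:104687742-104751952, minus strand, GRCm38) read at 105 and 215 CPM in SOM, at 42.3 and 55.0 CPM in 41584 and at 40.2 and 27.8 CPM in 41589. Both SOM libraries lay above the other 4, and SOM replicate 2 lay far above SOM replicate 1. WT read at 197 and 214 CPM and KO at 28.5 and 44.0 CPM, so SOM replicate 2 lay just above the WT libraries and 41584 and 41589 near KO. The log2 fold of SOM over the mean of the 2 lines was 1.97 ± 0.28 (SE), which the choice of the comparison had fixed in direction. Reads on the gene cannot separate the cell's own transcript from a transcript put back, and the labels do not say how the latter was built.

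No gene was called between SOM and the pair of lines at an adjusted p under 0.05 in edgeR's quasi-likelihood test (0 of 14629 tested, 0%). The smallest adjusted p was 0.145, that of Dicer1. At an unadjusted p under 0.05 there were 308 genes (2.11%), of which 98 (0.670%) were higher and 210 (1.44%) lower in SOM. Where no gene differs, that threshold gives on average a fraction of 0.05 of the genes. The share here and those against each line alone were smaller, so these counts show no excess of small p. DESeq2 called 3 genes (0.0111% of 27047), with Dicer1 and Trpm6 higher (0.00739%) and Tmem181a lower (0.00370%). Against 41584 alone edgeR called 0 genes (0%) and 361 (2.47%) had an unadjusted p under 0.05, 123 higher (0.841%) and 238 lower (1.63%). DESeq2 also called 0 there. Against 41589 alone edgeR called 0 (0%) with 159 (1.09%) under the unadjusted threshold, 50 higher (0.342%) and 109 lower (0.745%), and DESeq2 called 2. Between 41589 and 41584, edgeR called 0 genes, with 103 under the unadjusted threshold.

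The fit left room for sizeable differences. The median standard error of a log2 fold was 0.345, larger than the median absolute fold of 0.225, and 844 genes had a fold of more than 1 in either direction. The median log2 fold of all tested genes was -0.04. Both SOM libraries lay above all 4 others for 410 genes (2.80%) and below all 4 for 543 (3.71%). The smallest p that an exact permutation test of 2 libraries against 4 can give is 0.0667, so such a separation alone calls no gene. If the 6 libraries were interchangeable, each direction would be met by a fraction of 0.0667 of the genes on average. Both shares were below that, so the separation was no more frequent than without any difference.

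**Figure D1:**
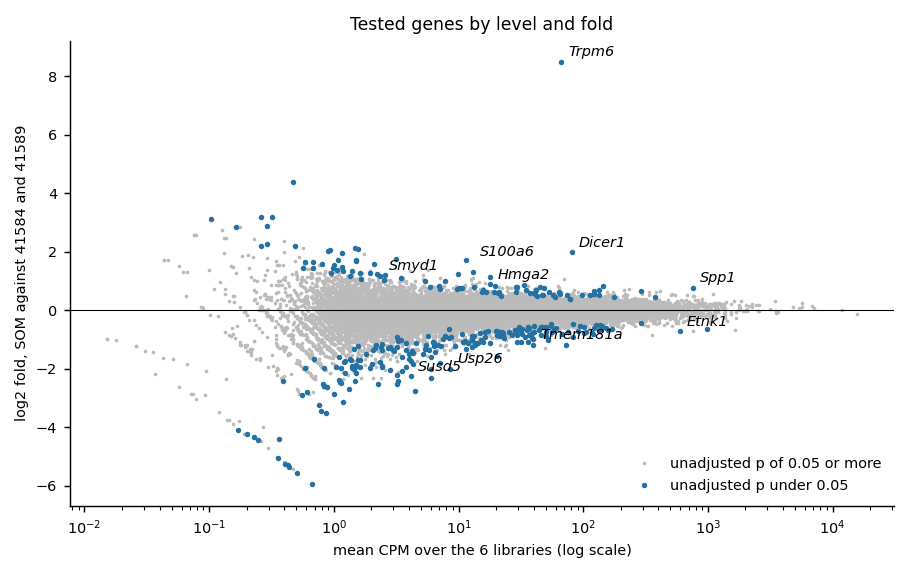
Log2 fold of SOM over the mean of 41584 and 41589 (vertical axis) against the mean CPM over the 6 libraries (horizontal axis, log scale), 1 point per tested gene. The 308 genes with an unadjusted p under 0.05 are in blue, fewer than that threshold gives on average where no gene differs. No gene passed the adjusted threshold in edgeR, and Trpm6 at the top owes its place to 1 SOM library.

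Since no gene passed, the genes with the smallest p in each direction are given as values, among those with at least 5 CPM on the higher side and SOM libraries clear of all 4 others. The adjusted p was 0.999 for each of them except Dicer1. On the higher side, S100a6 (ENSMUSG00000001025, chr3:90612882-90624181), a calcium-binding protein, read at 19.4 and 23.7 CPM in SOM, at 8.95 and 10.3 CPM in 41584 and at 6.95 and 9.13 CPM in 41589. Lying clear of all 4 others was a condition for naming, and the log2 fold was 1.29 ± 0.29. Smyd1 (chr6:71213940-71322233), a histone methyltransferase known from muscle, read at 15.9 and 16 CPM in SOM, at 3.45 and 10.7 CPM in 41584 and at 5.88 and 6.94 CPM in 41589. Its SOM replicates were nearly equal while those of 41584 lay far apart, with a log2 fold of 1.25 ± 0.33. Spp1 (chr5:104435118-104441050), the secreted matrix protein osteopontin, read at 1130 and 952 CPM in SOM, at 435 and 761 CPM in 41584 and at 547 and 702 CPM in 41589. Replicate 1 was the lower one in both 41584 and 41589, and the log2 fold was 0.77 ± 0.23.

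Hmga2, a chromatin protein and the best known let-7 target, read at 29.8 and 21.6 CPM in SOM, at 14.2 and 14.9 CPM in 41584 and at 14.2 and 12.7 CPM in 41589. Its log2 fold was 0.88 ± 0.28. Mt2, a metallothionein that binds zinc and copper, read at 48.0 and 33.1 CPM in SOM and at 18.2 to 33.1 CPM in the 4 others. Here SOM replicate 2 and 41589 replicate 2 were equal to 3 digits, so the separation is nominal. Ddah1, which degrades methylated arginines, read at 64.4 and 58.8 CPM in SOM, at 36.8 and 53.3 CPM in 41584 and at 26.0 and 30.6 CPM in 41589. Its distance from 41589 was larger (log2 fold 1.12 ± 0.27) than from 41584 (0.45 ± 0.27). The other 8 genes on this side had log2 folds of 0.50 to 0.98: the translocon subunit Sec61g, the protease Capn2, the adhesion receptor Adgrl2, the transporter Slc16a6, the histone variant H2afj, the tetraspanin Cd63, the glycosylation factor Tmem258 and Tspyl4.

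On the lower side, Tmem181a (ENSMUSG00000038141, chr17:6256860-6308314), a membrane protein, read at 21.6 and 21.2 CPM in SOM, at 62.3 and 43.1 CPM in 41584 and at 48.8 and 40.7 CPM in 41589. The log2 fold was -1.18 ± 0.23, and DESeq2 called the gene at an adjusted p of 0.0338. Tmem181a is uncertain, since near-identical copies lie in the mouse genome and reads could be split among them. The copy Tmem181b-ps read at 17.1 and 15.4 CPM in SOM and at 21.3 to 26.2 CPM in the 4 others, also with both SOM libraries below, and its log2 fold was -0.54 ± 0.27. Tob1, an antiproliferative protein that promotes deadenylation, read at 14.2 and 18.8 CPM in SOM, at 39.1 and 23.5 CPM in 41584 and at 47.6 and 32.2 CPM in 41589. WT, at 65.0 and 50.4 CPM, and KO, at 42.9 and 57.6 CPM, both lay above SOM, and the log2 fold was -1.10 ± 0.29.

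Usp26, an X-linked deubiquitinase of the germline, read at 2.06 and 3.38 CPM in SOM, at 20.3 and 8.39 CPM in 41584 and at 12.8 and 3.93 CPM in 41589. Its log2 fold was -2.01 ± 0.60. Susd5 read at 1.20 and 1.13 CPM in SOM, at 10.5 and 1.40 CPM in 41584 and at 7.38 and 3.20 CPM in 41589. In both genes and both lines replicate 2 was lower than replicate 1. The library nearest to SOM was 41589 replicate 2 for Usp26 and 41584 replicate 2 for Susd5. Cpt1a, the carnitine palmitoyltransferase that admits fatty acids to mitochondria, read at 59.5 and 78.0 CPM in SOM, at 149 and 83.9 CPM in 41584 and at 118 and 116 CPM in 41589, a log2 fold of -0.77 ± 0.24. The other 10 had log2 folds of -1.46 to -0.69, among them the tubulin glutamylase Ttll6, the NAD synthetase Nadsyn1, the ubiquitin ligase adaptors Klhl28 and Zyg11a, the potassium channel Kcnk6, the apoptosis gene Pmaip1, the ethanolamine kinase Etnk1, the NF-κB regulator Ikbkg and Fam198b.

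**Figure D2:**
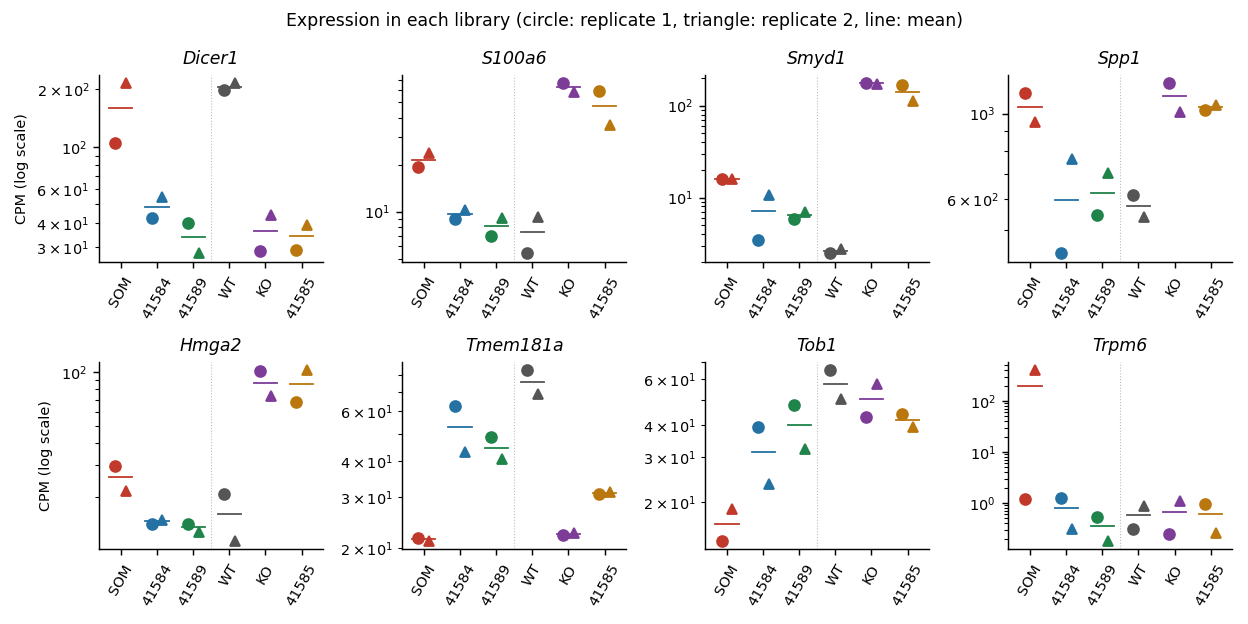
CPM of 8 genes (log scales that differ between panels) in each of the 12 libraries, as circles for replicate 1 and triangles for replicate 2, with the group mean as a line. In S100a6 and Tmem181a both SOM libraries are clear of those of 41584 and 41589 and lie on the side of KO, while in Tob1 KO lies with WT.

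KO and WT share no library with this comparison, though they stand in the same fit, and their values for these genes follow. Of the 14 genes named on the higher side besides Dicer1, 9 were called higher in KO than in WT by edgeR, 0 were called lower and 5 were not called. Over all tested genes the share called higher in KO was 7.29%. The named genes were chosen for at least 5 CPM and a small p in this same fit. All tested genes are not matched to them for level or spread, so the shares are not a like background. Those 9 were S100a6, Smyd1, Spp1, Hmga2, Mt2, Capn2, Adgrl2, Slc16a6 and Cd63, with log2 folds of KO over WT such as 6.05 ± 0.46 for Smyd1 and 3.07 ± 0.36 for S100a6. Smyd1 stood at 176 and 174 CPM in KO and at 2.47 and 2.73 CPM in WT. The SOM level of about 16 CPM was nearer to WT in CPM, while its log2 fold over WT was 2.6 ± 0.44. Of the 15 named on the lower side, 7 were called lower in KO than in WT, against 5.90% of all tested genes, 0 were called higher and 8 were not called. Among those 7 were Tmem181a, Usp26, Susd5, Pmaip1, Etnk1 and Fam198b.

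The same was described for every gene called between KO and WT, a grouping added after the data were seen. The 1066 genes higher in KO had a median log2 fold of 0.18 in SOM over the pair, and the 863 genes lower in KO had -0.37, beside -0.04 for all tested genes. Of the former, 70.7% had a fold above 0 and of the latter 12.1%, against 45.1% of all tested genes. Both SOM libraries lay above all 4 others for 78 of the KO-higher genes (7.32%, beside 2.80% of all), and below all 4 for 99 of the KO-lower genes (11.5%, beside 3.71%). Across the 14629 genes the log2 fold of KO over WT and that of SOM over the pair had Pearson's r = 0.386 and Spearman's rho = 0.429. That figure describes genes of the same libraries, which are not independent, and carries no test.

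The size of this shift depended on the replicate of 41584 and 41589. The KO-lower genes stood at a median log2 deviation from their mean over the 12 libraries of 0.00 and 0.06 in SOM, of 0.68 and 0.12 in 41584 and of 0.56 and 0.07 in 41589. Thus SOM and replicate 2 of both lines were close together and replicate 1 of both lines was nearer to WT, at 0.96 and 0.74. Against replicate 1 alone the median fold of the KO-lower genes was -0.58, and against replicate 2 alone it was -0.05. The KO-higher genes stood at -0.33 and -0.16 in SOM, at -0.63 and -0.40 in 41584 and at -0.58 and -0.20 in 41589, with WT at -0.92 and -0.71. Against replicate 1 their median fold was 0.39 and against replicate 2 it was 0.07. Without 41584 replicate 1 the KO-lower median was -0.19 and without 41589 replicate 1 it was -0.22. With all libraries and the GC and length trend removed, the KO-lower median was -0.27 and the KO-higher median 0.23. For the KO-higher genes, leaving out SOM replicate 2 gave 0.09, leaving out 41589 replicate 1 gave 0.12 and leaving out 41589 replicate 2 gave 0.32.

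**Figure D3:**
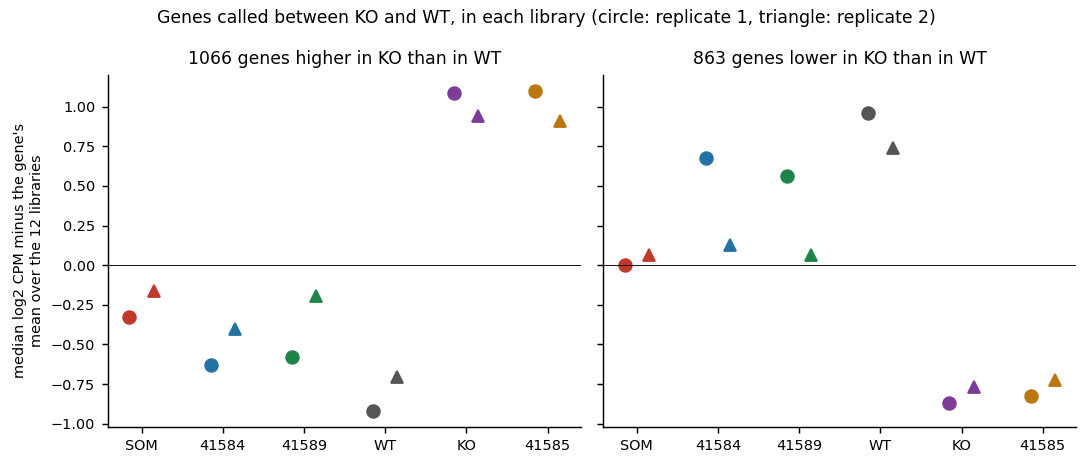
Median deviation of log2 CPM from each gene's mean over the 12 libraries (vertical axis), for the genes called higher (left) and lower (right) in KO than in WT, in each library (circles for replicate 1, triangles for replicate 2). In the right panel replicate 1 of 41584 and 41589 lies at 0.68 and 0.56, towards WT, and their replicate 2 lies beside the 2 SOM libraries.

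Setting SOM against only 1 library of each line showed the same division gene by gene. Against replicate 1 of 41584 and 41589, edgeR called 234 of 15281 genes (1.53%), 113 higher (0.739%) and 121 lower (0.792%) in SOM. Against replicate 2 it called 0 of 15208 (0%), with 297 at an unadjusted p under 0.05. Each line then has 1 library, which is assumed to vary like the other groups. Yet 41584 and 41589 had the largest median absolute log2 differences between replicates, 0.534 and 0.514. The other groups had 0.188 to 0.364, so the spread behind these calls may be too small. The labels do not say what libraries of 1 number share, and a difference of line, culture or preparation cannot be told apart here. Of the named genes, 4 of the 14 on the higher side and 10 of the 15 on the lower side were among the calls against replicate 1, and 0 were called against replicate 2.

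Among the calls against replicate 1, Enox1, a cell surface oxidase, read at 81.2 and 89.4 CPM in SOM, at 6.26 and 116 CPM in 41584 and at 23.3 and 78.1 CPM in 41589. WT read at 8.20 and 17.9 CPM. Within 41584 and 41589 replicate 1 was the low one, near WT, and replicate 2 lay near both SOM libraries. For all genes named from these calls, the distance of replicate 1 from SOM was fixed by the choice, while replicate 2 had no part in it. The log2 fold of Enox1 was 2.82 against replicate 1 and -0.16 against replicate 2. Ccnd2, cyclin D2 of the G1 phase, followed the same division at 20.1 and 47.2 CPM in SOM, at 7.03 and 42.1 CPM in 41584 and at 4.38 and 25.8 CPM in 41589. Other genes of large fold on this side were Rsph4a of the ciliary radial spoke, Exoc3l, the G protein subunit Gna14, the phospholipase Pla2g7, the transcription factors Eya1 and Msc, and Samd9l. The log2 fold of Pla2g7 was 2.89 against replicate 1 and 1.06, not called, against replicate 2, with 9.77 and 32.3 CPM in SOM, 2.56 and 12.7 CPM in 41584 and 3.10 and 7.85 CPM in 41589. SOM replicate 1 lay below 41584 replicate 2.

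On the lower side of the calls against replicate 1, Meiob, a meiotic recombination protein, read at 1.20 and 2.07 CPM in SOM, at 13.9 and 1.71 CPM in 41584 and at 14.8 and 2.56 CPM in 41589. WT read at 27.2 and 10.6 CPM, so replicate 1 of both lines lay between the WT libraries, and replicate 2 of both lay below WT and near SOM. Oprk1, the kappa opioid receptor, read at 0.857 and 0.376 CPM in SOM, at 7.93 and 0.466 CPM in 41584 and at 4.17 and 0.639 CPM in 41589. Others were Itih5, the zinc finger gene Zfp677, the G protein regulator Rgs17, the calcium pump Atp2b2, the translation factor Eif4e3, the phosphatase Ptpn20, Susd5 and the tetraspanin Tspan18. Over the 121 genes lower in SOM the median deviation from the gene mean was -0.67 in 41584 replicate 2 and -0.40 in 41589 replicate 2, libraries that had no part in choosing them, and 1.33 and 0.99 in WT. Over the 113 higher genes it was 0.39 and 0.26 in those replicate 2 libraries and -1.21 and -0.83 in WT.

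**Figure D4:**
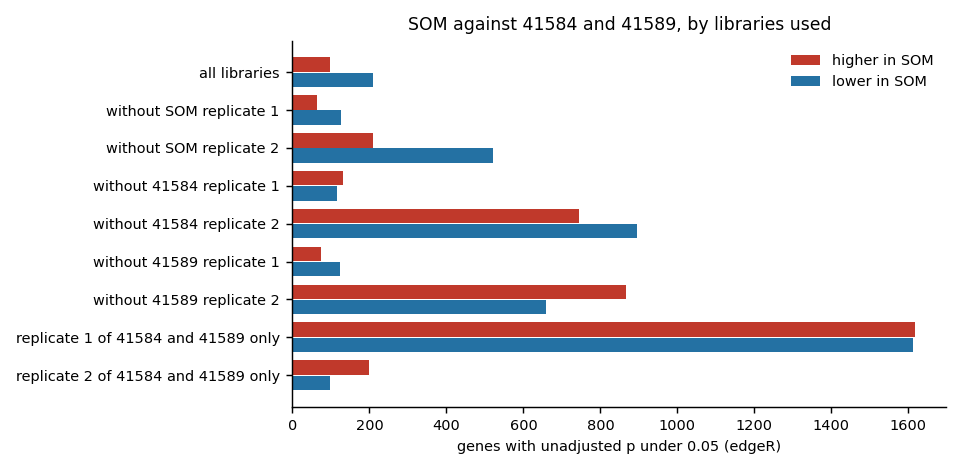
Number of genes with an unadjusted p under 0.05 in edgeR (horizontal axis), higher (red) and lower (blue) in SOM, for each set of libraries used. With all libraries there were 98 and 210, and against replicate 1 of the lines alone 1618 and 1613.

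Trpm6 (ENSMUSG00000024727, chr19:18749983-18892511, plus strand), a magnesium channel, was singled out after its values were seen. It held 2119 reads (398 CPM) in SOM replicate 2 and 7 reads (1.20 CPM) in SOM replicate 1. The other 10 libraries of the series held 2 to 10 reads. Its value in SOM replicate 2 exceeded the next library by 8.02 on the log2 CPM scale, and the next gene with such a gap in that library exceeded its own by 1.11. The neighbouring genes did not share it: Carnmt1 read at 54.8 and 64.8 CPM in the SOM libraries and at 43.2 to 85.5 CPM in the 4 others, and Ostf1 at 19 and 15.8 CPM against 16 to 28.2 CPM. Both the DESeq2 call of Trpm6 and its place among the edgeR values rest on this 1 library.

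Gene lists gave no member called in the comparison with both lines, 0 in each of 36 lists, so their medians are set beside the -0.04 of all tested genes. Of the small RNA machinery, 22 genes were tested, with a median log2 fold of -0.09. Besides Dicer1, the terminal uridylyltransferase Tut4, which modifies let-7 precursors, read at 93.1 and 126 CPM in SOM, at 161 and 169 CPM in 41584 and at 195 and 111 CPM in 41589. The groups overlapped, and its log2 fold was -0.54 ± 0.25. Reported targets of the miR-290 and miR-17 families (19 tested) had a median of -0.15. Cdkn1a, the cell cycle inhibitor p21, read at 22.3 and 30.4 CPM in SOM, at 68.9 and 25.8 CPM in 41584 and at 46.5 and 40.6 CPM in 41589, a log2 fold of -0.79 ± 0.34 with overlapping groups. The 21 tested genes of the Lin28 and let-7 list had a median of 0.22, of 0.376 against replicate 1 and of 0.055 against replicate 2. Against 41584 alone it was 0.124 and against 41589 alone 0.032. Members ranged from -0.36 to 0.88, with Hmga2 at 0.88 ± 0.28 and Igf2bp1, an RNA-binding protein, at 0.40 ± 0.27.

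Messages that carry a site were compared over 12930 tested genes with an annotated 3' UTR of at least 50 bases (GENCODE M21), searched on the sense strand. The site AGCACTT of the miR-294 seed lay in 2405 UTRs (18.6%), and these genes had a median log2 fold of -0.12, against -0.03 without it. Genes with the miR-208a site of another tissue had -0.11, against -0.05 without it. Adjusted for the length and GC content of the UTR, the difference for the miR-294 site was -0.02 ± 0.01. The miR-17 site GCACTTT, which shares 6 bases with the former, lay in 15.1% of UTRs and gave -0.03 ± 0.01. The let-7 site CTACCTC (12.2%) gave -0.01 ± 0.01 and the miR-208a site CGTCTTA (2.03%) 0.01 ± 0.03. No gene with any of these sites was called, and the standard errors of these differences treat genes as independent, so no test is given.

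Lists of stem cell genes had medians on both sides of that of all genes. The 24 genes of core and naive pluripotency had a median log2 fold of 0.06, of 0.29 against replicate 1 and of -0.04 against replicate 2. The 17 of the formative and primed epiblast had a median of 0.26, of 0.80 against replicate 1 and of -0.06 against replicate 2. The 29 of the Wnt pathway had -0.15. The 16 of LIF and STAT3 signalling had 0.03, and the 20 of FGF and ERK signalling 0.02. In the FGF list, Fgf4, the main autocrine FGF of these cells, read at 90.2 and 157 CPM in SOM, at 208 and 175 CPM in 41584 and at 211 and 180 CPM in 41589. Both SOM libraries lay below all 4 others, with a log2 fold of -0.65 ± 0.23. Pou5f1, the pluripotency factor Oct4, read at 749 and 551 CPM in SOM, at 352 and 386 CPM in 41584 and at 274 and 791 CPM in 41589, so 41589 replicate 2 exceeded both SOM libraries. Nr0b1 read at 79.7 and 93.0 CPM in SOM, at 20.1 and 101 CPM in 41584 and at 30.5 and 57.3 CPM in 41589. Its log2 fold was 1.81 against replicate 1 and 0.18 against replicate 2.

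Cell cycle and p53 genes were read with both replicates. The 25 genes of the G1/S list had a median of 0.14, of 0.52 against replicate 1 and of -0.06 against replicate 2. Against replicate 1, Ccnd1, Ccnd2 and Cdk4 were called higher and Cdkn1a lower, beside 0.739% of all tested genes called higher and 0.792% called lower. The 28 genes of p53 and its targets had a median of -0.34, of -0.22 against replicate 1 and of -0.24 against replicate 2. In that list Pmaip1, the apoptosis gene Noxa, read at 44.6 and 46.2 CPM in SOM, at 91.5 and 72.0 CPM in 41584 and at 99.7 and 54.1 CPM in 41589, a log2 fold of -0.80 ± 0.27. All tested genes had medians of 0.001 and 0.007 against replicates 1 and 2. Other lists were below 0 with either replicate too, such as the Y-linked genes (-0.23 and -0.41). In the p53 list 2 of 28 members had an unadjusted p under 0.05 and a lower value in SOM, beside 1.44% of all tested genes.

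Genes of cholesterol synthesis (23 tested) had a median of -0.35. Msmo1, a sterol demethylating oxidase, read at 91.2 and 90.6 CPM in SOM, at 181 and 87.1 CPM in 41584 and at 208 and 92.2 CPM in 41589. Replicate 2 of both lines lay beside SOM and replicate 1 above it, with a log2 fold of -0.64 ± 0.34. Against replicate 1 the list's median was -0.53 and 3 members were called lower, among them Msmo1 and Insig1, which retains the sterol sensor in the endoplasmic reticulum. The share of all tested genes called lower there was 0.792%. Against replicate 2 it was 0.02, and 0 members were called. The 29 genes of glycolysis and hypoxia had a median of -0.10, of -0.36 against replicate 1 and of 0.06 against replicate 2. There Ero1l, an oxidase of the endoplasmic reticulum, was called lower against replicate 1, at 109 and 131 CPM in SOM, 264 and 127 CPM in 41584 and 268 and 88.7 CPM in 41589.

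Interferon-stimulated genes and sensors of double-stranded RNA (38 tested) bear on the label of 41589, whose missing product is siRNA. Their median log2 fold was 0.09, with 0.18 against 41584 and 0.01 against 41589. Ifitm2, a membrane protein that restricts viral entry, read at 179 and 145 CPM in SOM, at 94.9 and 96.5 CPM in 41584 and at 67.7 and 149 CPM in 41589. Ddx58, the sensor RIG-I, read at 106 and 107 CPM in SOM, at 13.2 and 99.5 CPM in 41584 and at 25.9 and 66.6 CPM in 41589. In both genes a replicate 2 library came close to SOM or overlapped it, and they were among 4 members called higher against replicate 1, with Ifitm3 and Irgm1, beside 0.739% of all tested genes. Gbp2 read at 0.686 and 0.564 CPM in SOM and at 0.000 to 0.274 CPM in the 4 others, beside 16.6 and 11.7 CPM in KO.

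Medians for lists of other cell states differed with the replicate. The 15 genes of the two-cell-like state, a rare transient state marked by the Zscan4 cluster, had a median of -0.75, of -1.33 against replicate 1 and of 0.70 against replicate 2. Zscan4c read at 21.6 and 3.01 CPM in SOM, at 31.4 and 23.2 CPM in 41584 and at 36.1 and 5.11 CPM in 41589, so replicates differed widely within SOM and within 41589. Zscan4 genes are near-identical copies, and their reads may be split. The 30 germline genes that methylation silences had a median of -0.34, of -0.64 against replicate 1 and of 0.37 against replicate 2. Dazl, a germ cell RNA-binding protein, read at 58.3 and 38.5 CPM in SOM, at 154 and 82.1 CPM in 41584 and at 113 and 30.0 CPM in 41589. The 15 tested genes of the DNA methylation machinery had a median of 0.03.

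Imprinted genes differed by library. Rian, a long noncoding RNA of the Dlk1-Dio3 region, read at 348 and 643 CPM in SOM, at 8.95 and 657 CPM in 41584 and at 550 and 460 CPM in 41589. Mirg of the same region read at 0.256 CPM in 41584 replicate 1 and at 13 to 28.3 CPM in the other 5. The low values were thus those of 1 library of 41584. Igf2r, the receptor that degrades Igf2, read at 84.7 and 104 CPM in SOM, at 234 and 117 CPM in 41584 and at 151 and 114 CPM in 41589, below all 4 others in both SOM libraries, with a log2 fold of -0.70 ± 0.27.

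Genes of translation and stress showed medians of small size. Cytosolic ribosomal proteins (26 tested) had a median of 0.16, of 0.35 against replicate 1 and of 0.07 against replicate 2, and heat shock genes (14 tested) 0.18. The 26 genes of ATF4 and the unfolded protein response had 0.10, and the 17 of NRF2 and metallothionein 0.13. Hspa8, the constitutive chaperone, read at 4470 and 3390 CPM in SOM, at 1960 and 3950 CPM in 41584 and at 3310 and 3460 CPM in 41589, with overlapping groups. The share of a library's RNA that these genes take and their amount per cell cannot be told apart.

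**Figure D5:**
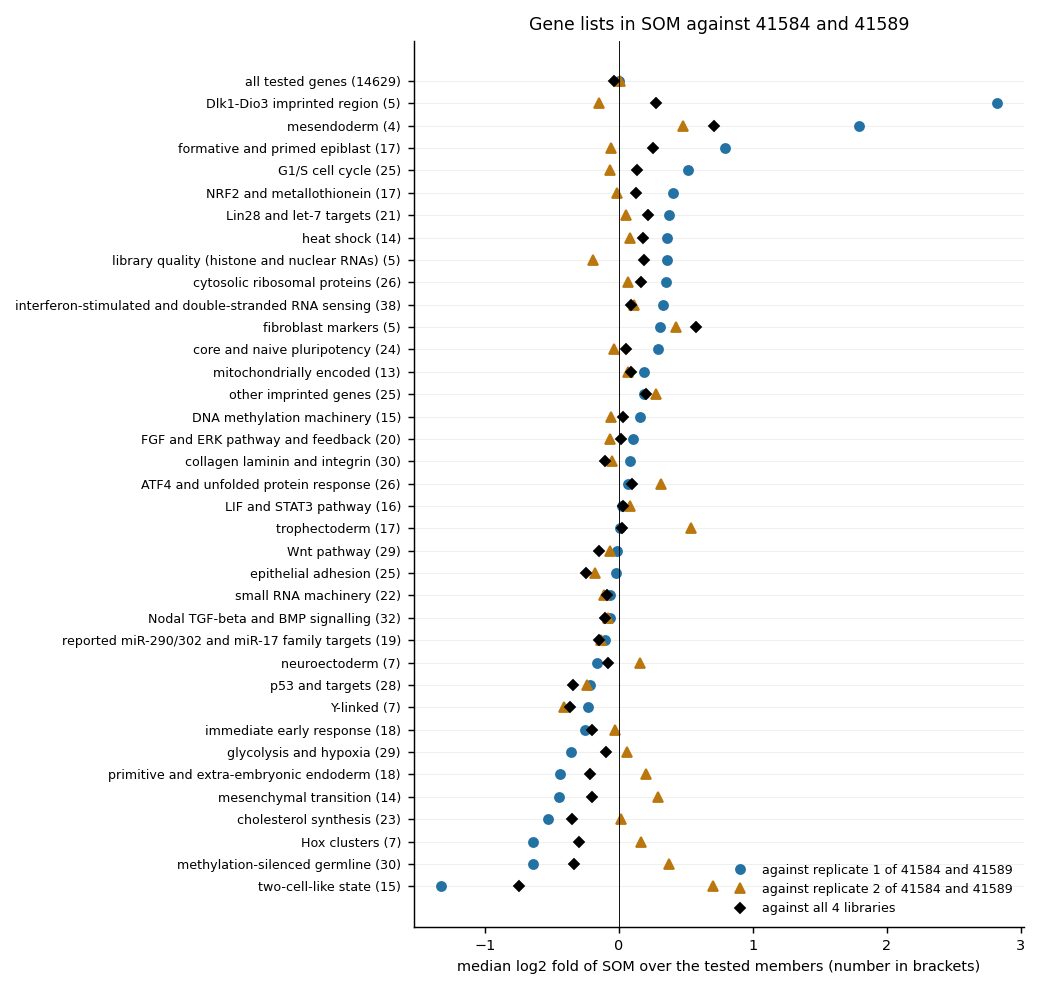
Median log2 fold of SOM (horizontal axis) over the tested members of each list (number in brackets), against all 4 libraries of 41584 and 41589 (diamonds), their replicate 1 (circles) and their replicate 2 (triangles). The p53 list lies below 0 with either replicate, while cholesterol synthesis goes from -0.53 to 0.02 and the two-cell-like state from -1.33 to 0.70.

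By chromosome, the median log2 fold lay between -0.10 and 0.01 for each autosome and for X. Chromosome 15 had the lowest median of the autosomes, -0.10, and its genes deviated from their mean over the 12 libraries by 0.05 and -0.33 in SOM, by 0.20 and -0.48 in 41584 and by 0.07 and -0.16 in 41589. Replicate 2 of all 3 lines was the lower one there. Of the 11 tested genes on the Y chromosome Zfy1, a zinc finger gene, read at 1.37 and 0.376 CPM in SOM, at 10.6 and 4.20 CPM in 41584 and at 9.73 and 0.731 CPM in 41589. Uty, another Y gene, read at 46.4 and 59.0 CPM in SOM and at 33.1 to 88.0 CPM in the others, so it did not share the low value. The median log2 fold of the 11 Y genes was -0.31, lower than that of any autosome or of X.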

How the data were processed

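Poly(A) RNA was measured in 12 libraries of mouse embryonic stem cells, 6 of them used in the comparison. Per the labels' protocols, libraries were reverse-stranded TruSeq. Per the submitters' processing notes, reads were aligned with STAR 2.4.2a to mm10 (GRCm38). The authors deposited raw counts, 1 whole number for each of 47643 genes. The sources used here give neither the counting program nor its annotation. GENCODE M21 gave symbols and positions to 47224 genes and none to 419.

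Groups were compared with edgeR 4.0.16 (R 4.3.3; quasi-likelihood, robust, TMM, filterByExpr, 1 mean per group, all 12 libraries, 6 residual degrees of freedom, common biological coefficient of variation 0.278). The contrast was SOM minus the average of 41584 and 41589. A gene was called where its p, adjusted by Benjamini-Hochberg over all genes tested, was under 0.05, and values after ± are standard errors. DESeq2 1.42.0 was an alternative, with other scalings, filters, a replicate block, a GC and length trend removed, and libraries left out. The code was checked on simulated data.

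The named genes are Dicer1, then up to 15 per direction with at least 5 CPM on the higher side, an ordinary symbol and both SOM libraries on one side of the other 4. Called genes came first by fold, then the smallest p. Up to 4 members of each list with the smallest p were open to naming; some genes that the rule names are not reported here. Members and 36 lists were chosen with earlier results of these data known. The miR-208a site took the place of another tissue's miRNA after the files were seen.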

Additional observations from a re-analysis of the deposited data

How the results depend on the processing

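The count of 0 genes between SOM and both lines also came out with RLE scaling, with at least 1 CPM in 4 libraries, with only the 6 libraries fitted, with chromosomes 15 and Y left out and with both lines as 1 group. It was 3 with DESeq2, 9 without a filter on low counts, 1 with the GC and length trend removed and 234 against replicate 1 of the lines. Leaving out 1 library gave 0 to 2, the 2 being Trpm6 and Dicer1 without SOM replicate 1. Without the filter the 9 were Trpm6, Dicer1, Pla2g7 and Smyd1 higher and Zfy1, Smc1b, Meiob, Meioc and Rbm44 lower. Against 41584 the count of 0 became 14 without the filter and 0 to 1 with a library left out. Against 41589 it became 2 with DESeq2, 8 without the filter, 1 with the GC and length trend removed and 0 to 2 with a library left out. The causes were not tested.

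With the replicate number as a block the count was 0 for all 3 comparisons (smallest adjusted p 0.0634 in edgeR for both lines together). Deviations of same-numbered libraries correlated at 0.251 between SOM and 41584, at 0.042 between SOM and 41589 and at 0.182 between the 2 lines, and nothing in the labels pairs them. Under 14 of the alternatives, which leave out the fits against replicate 1 or 2 alone and with the lines as 1 group, each named gene kept its direction. Naming required both SOM libraries on one side of the other 4. A kept direction was therefore nearly fixed by that rule and lends the genes no support. In these 14 alternatives 414 values were on the same side of the threshold and 6 past it, for Dicer1, Smyd1 and Tmem181a. Against replicate 1 alone, 4 of the 14 higher and 10 of the 15 lower named genes besides Dicer1 passed it. Reads of 5348401 to 10428509 per library and 2 libraries per line limit the precision.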

Other observations

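GC content moved with single libraries and not with lines. Across 14596 genes, the rank correlation of a gene's deviation from its mean with its GC content was 0.224 and -0.154 in SOM, 0.075 and -0.464 in 41584 and -0.464 and 0.539 in 41589. Its part in the differences between replicates 1 and 2 was not tested.

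Among genes of meiosis, Smc1b held 170 and 107 reads in the SOM libraries and Meioc held 226 and 204. In replicate 1 of 41584 and 41589 Smc1b held 847 and 990 reads and Meioc 911 and 1400. In replicate 2 Smc1b held 83 and 192 reads and Meioc 289 and 509. These reads are not scaled to library size, and 41589 replicate 2 held 10428509 reads in all, beside 5348401 in SOM replicate 2. Scaled, Meioc read at 38.7 and 38.3 CPM in SOM, at 116 and 44.9 CPM in 41584 and at 150 and 46.5 CPM in 41589.

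Grb10, an imprinted adaptor of growth signalling, was low in 41589 replicate 1, at 43.2 CPM. The other 5 libraries of the 3 lines read at 297 to 544 CPM. For Rian the low library was another one, 41584 replicate 1.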
